A study of Mus musculus with 12 samples.

Results

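Collagen chain genes were examined in RNA from mouse skin, taken from UVB-irradiated and untreated sites of mice with wild-type Foxp3 (WT) and of mice with an altered Foxp3. A gene was a member if its symbol was Col, a number, the letter a and a number, and if it had 10 or more counts summed over the 12 libraries. Of 44 genes with such a symbol, 41 met the count minimum, out of 53465 genes in the files. Col6a4 with 6 counts, Col9a1 with 2 and Col9a2 with 0 fell below it, and the lowest member was Col10a1 with 14. The filter on low counts passed 31 of the 41 to the test, and the other 10 are described by their counts.

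The study crossed genotype with irradiation, with 3 libraries in each of 4 groups: untreated WT, irradiated WT, untreated DE2 and irradiated DE2. Its title places the question in inflammation of the skin after UVB. The altered genotype is written Foxp3-E2 in the sample labels, Foxp3-DE2 in the protocol and Foxp3dExon2 in the title, and was taken as 1 genotype, called DE2. Irradiated skin received 6 doses of UVB on a shaved flank patch of 3 by 2 cm. The labels give the dose as 200 mJ/cm2 and the protocol as 100 mJ/cm2. The construction of the DE2 allele and the age and sex of the mice were not stated, nor was shaving of the untreated site. Libraries carry no animal names, and p-values here reflect library-to-library spread alone, which may be technical in part or include 2 sites of 1 mouse.

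Collagens are extracellular proteins built from 3 polypeptide chains wound into a triple helix. Fibrillar collagens (I, III, V and XI) make the load-bearing fibres of the dermis, and the FACIT collagens (fibril-associated collagens with interrupted triple helices) sit on those fibres. Network collagens such as collagen IV form the sheet of basement membranes. Collagen VI makes beaded filaments around cells, collagen VII the anchoring fibrils beneath the epidermis, and collagen XVII is a transmembrane protein of the hemidesmosome, the junction that holds basal keratinocytes to their basement membrane. Dermal fibroblasts are the main source of the fibrillar chains, and keratinocytes make collagens VII and XVII and share in making collagen IV.

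Counts per library totalled 2809142 to 4741726. Levels are given as CPM, counts normalised to library size and TMM factors by edgeR. Differences are log2 fold changes ± an approximate standard error from edgeR's quasi-likelihood test, and a gene is called when its Benjamini-Hochberg adjusted p over 15126 genes is under 0.05. Untreated DE2 skin stood apart in its makeup. The 17 matched hair follicle markers summed to 174 to 836 CPM there, whereas untreated WT held 12518 to 24014 CPM, the irradiated WT libraries 25462 to 29713 and the irradiated DE2 libraries 9647 to 16389. The 16 skeletal muscle markers took 6.51 to 11.7% of its counts, against 2.71 to 4.14% in untreated WT and irradiated DE2, and 1.57 to 6.23% in irradiated WT. Single libraries also stood apart: untreated DE2 replicate 1 had a fibroblast list of 2561 CPM, against 1307 and 1357 in its group, and irradiated WT replicate 2 had the 6.23% muscle share. All 13 fibroblast, 8 basal keratinocyte, 9 endothelial and 5 pericyte markers had counts in every group. Of the 8 cartilage markers, Matn1 was at 0 in all groups, and Comp, Matn3 and Hapln1 were each at 0 in 3 of them. In bulk skin RNA, fewer cells of a type and less RNA per cell cannot be told apart.

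**Figure D1:**
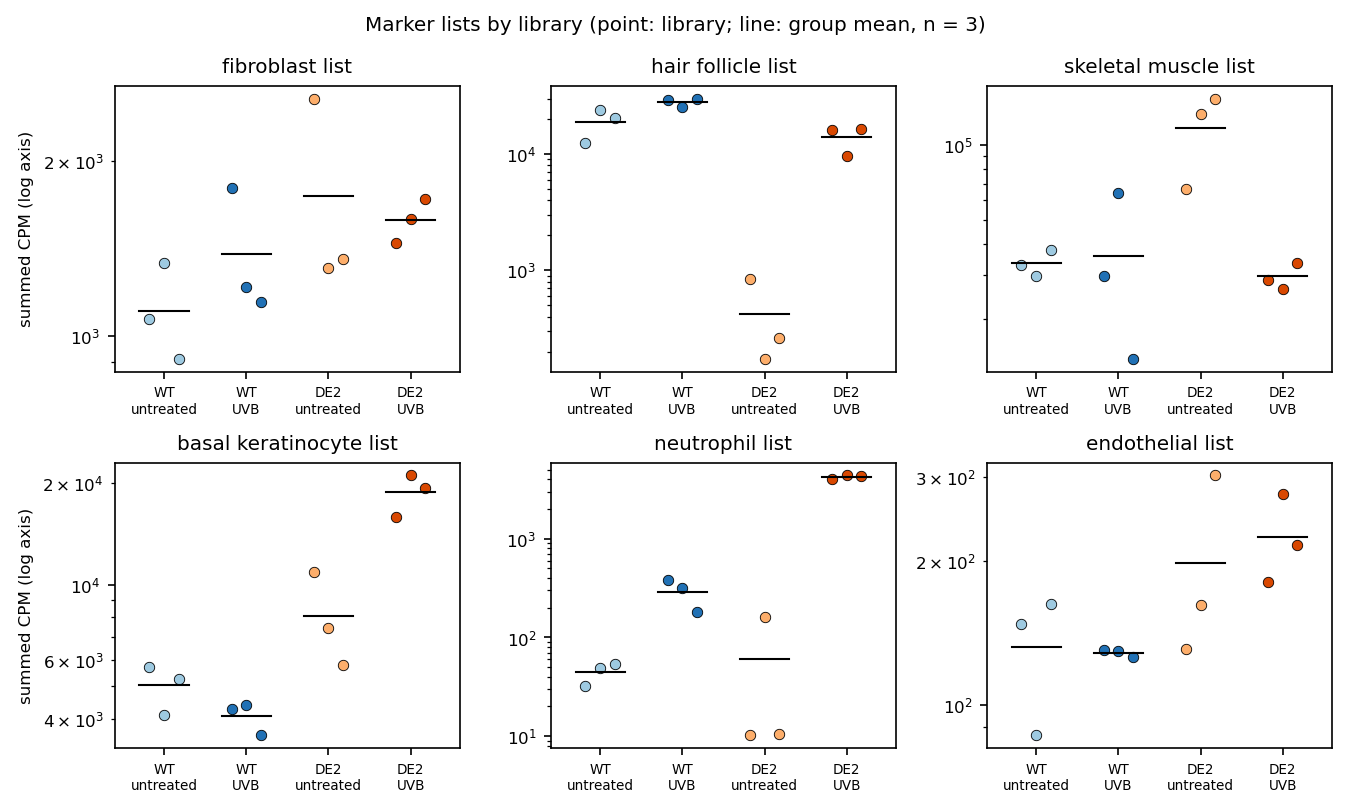
Summed CPM of 6 marker lists in each library, on a log axis, by group, with the group mean as a line. The hair follicle list was lowest in the 3 untreated DE2 libraries, at 174 to 836 CPM, and the fibroblast list ranged from 912 to 2561 CPM over all 12.

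Irradiated DE2 skin carried the most collagen RNA. All 41 genes together took 0.384% ± 0.146 of counts there (SD, n = 3), against 0.208% ± 0.109 in untreated DE2, 0.212% ± 0.0250 in untreated WT and 0.186% ± 0.0325 in irradiated WT. Irradiated DE2 replicates 1, 2 and 3 were at 0.249, 0.539 and 0.364%. Untreated DE2 replicate 1, at 0.333%, lay within that range, and its group mates were at 0.157 and 0.133%. With muscle genes left out of the total, the group means were 0.396% in irradiated DE2, 0.228% in untreated DE2, 0.220% in untreated WT and 0.193% in irradiated WT. Of the 31 tested genes, 12 were highest in irradiated DE2 replicate 2 and 6 in replicate 3.

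The makeup of that RNA differed too. Fibrillar chains made up 52.7% ± 5.0 of collagen counts at the untreated WT site and 61.5% ± 3.12 at the irradiated one. In DE2 they made up 48.9% ± 4.36 untreated and 63.4% ± 2.28 irradiated. The 4 transmembrane collagens, of which Col17a1 gave nearly all counts, made up 18.5% ± 3.83, 9.86% ± 2.01, 28.5% ± 3.29 and 7.81% ± 2.03 in the same order. In both genotypes the irradiated libraries had the larger fibrillar share and the smaller transmembrane share, with no overlap between the sites. Per kilobase of transcript, the leading genes in untreated WT were Col1a2 at 71.1 ± 12.5 CPM per kilobase, Col3a1 at 66.6 ± 11.2 and Col17a1 at 59.1 ± 15.2, which did not differ beyond their spread. Col1a1 followed at 22.9 ± 4.81. In untreated DE2 the order was led by Col17a1, at 115 ± 46.1 CPM per kilobase, over Col1a2 at 86.1 ± 44.9, again within the spread. In irradiated DE2 it was Col3a1 at 178 ± 67.2, Col1a2 at 153 ± 63.6, Col1a1 at 57.8 ± 24.6 and Col17a1 at 47.6 ± 7.57.

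**Figure D2:**
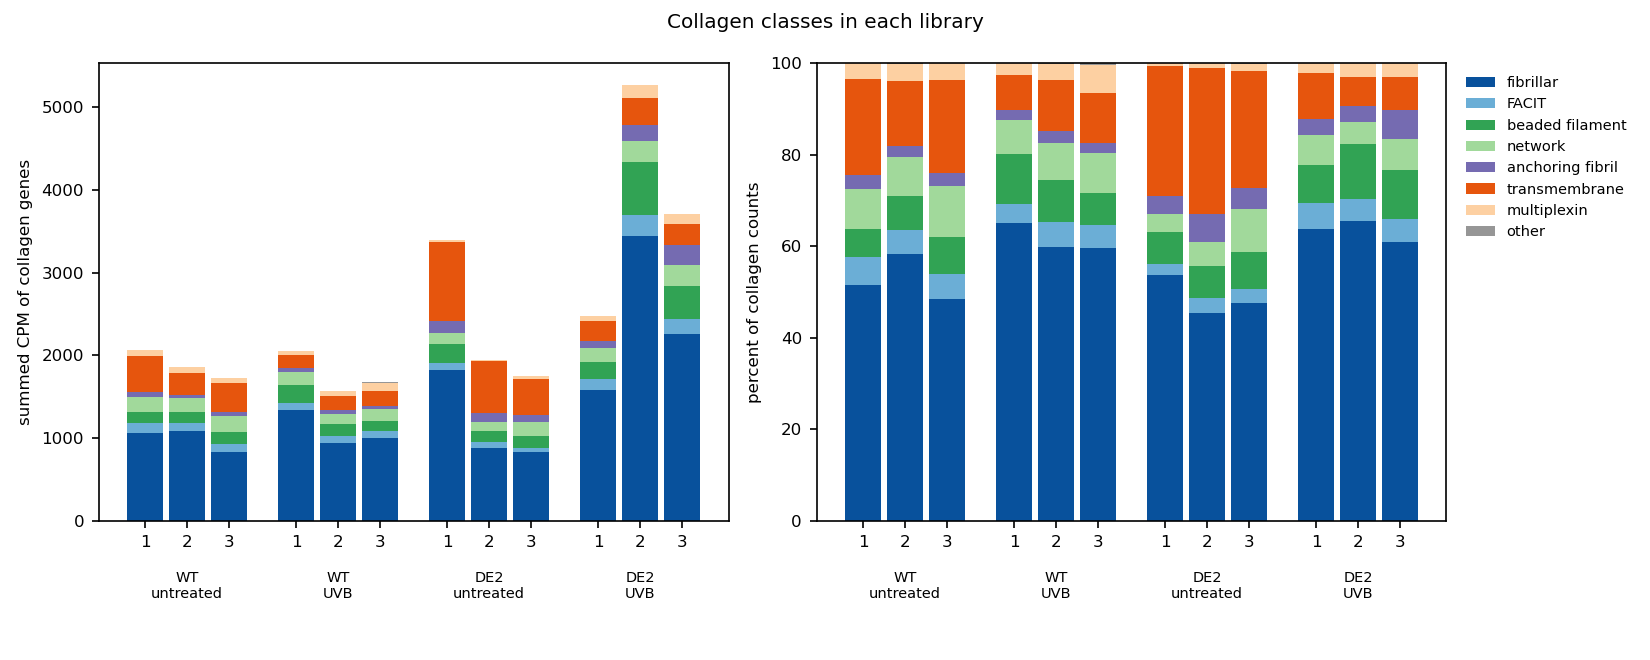
Left, summed CPM of the collagen genes in each of the 12 libraries, stacked by class; right, each class as a percent of the collagen counts of that library. Irradiated DE2 libraries 2 and 3 have the tallest stacks, and the transmembrane share is 25.4 to 31.9% in untreated DE2 against 6.29 to 10.1% in irradiated DE2.

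In WT skin, UVB moved no collagen gene past the threshold in edgeR's test. The background was as quiet: 0.0198% of all genes tested were called higher and 0% lower. Without adjustment 2 of the 31 collagen genes had p under 0.05, both lower and both transmembrane, namely Col17a1 with a difference of -1.05 ± 0.27 (adjusted p = 0.554) and Col13a1 with -3.38 ± 1.35 (adjusted p = 1). Col13a1 had 13, 41 and 0 counts in the untreated WT libraries and 0, 2 and 2 in irradiated WT, so the groups overlapped. DESeq2 and limma voom also called 0 of the 31. With no filter on low counts Col17a1 was called, at an adjusted p of 0.0115, in a fit that called 0.488% of all genes. The median log2 difference over the 31 was -0.27, against 0.03 over all genes tested, and 14 of 31 were above 0.

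In DE2 skin, collagen genes of 5 classes rose with UVB and 3 genes fell. Among the 31 tested genes, 13 rose, where 14.4% of all genes did, and 3 fell, where 13.4% did. The genes that rose were Col12a1, Col11a1, Col18a1, Col8a1, Col6a3, Col5a2, Col14a1, Col5a1, Col1a1, Col6a2, Col4a1, Col3a1 and Col4a2, by 3.94 down to 0.90 on the log2 scale. Those that fell were Col4a6, Col23a1 and Col17a1. By class, 5 of 9 fibrillar genes rose, 2 of 4 FACIT, 2 of 4 beaded filament, 3 of 8 network and 1 of 2 multiplexin genes, while 2 of 3 transmembrane genes and 1 network gene fell. The median over the 31 was 0.83, against 0.02 over all genes. Beside this comparison, all 17 hair follicle markers rose and all 16 muscle markers fell, all 5 neutrophil markers rose, and 1 of 13 fibroblast markers rose with a list median of 0.15. With the hair follicle list as a covariate 0 of the 31 collagen genes were called, with the muscle share 3 were, and with the fibroblast list 11 were, 8 of them higher. The 3 called with the muscle share were Col12a1, Col4a6 and Col17a1, and every other call in this comparison was lost with it. Over all genes the same covariates left 0.00661%, 4.69% and 17.98% called, against 27.8% without them. The hair follicle and muscle lists differ between the groups compared, so their part in the result cannot be told apart from the groups.

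Between genotypes in untreated skin, 2 of 31 collagen genes were higher in DE2, Col7a1 and Col17a1, where 11.8% of all genes tested were higher. Lower in DE2 were 3, Col11a1, Col12a1 and Col18a1, where 11.2% of all genes were. Both shares are near the background. The medians were 0.02 over the 31 and 0.03 over all genes. Scaling to library totals turned this split to 0 higher and 7 lower, beside 789 higher and 3005 lower of 15126 genes. That scaling shifted the median of all genes from 0.03 to -0.37. Relative to that shift, Col7a1 at 0.74 and Col17a1 at 0.61 remained above the median of all genes but were no longer called. All 17 hair follicle markers were lower in untreated DE2 and 13 of 16 muscle markers higher, and their part in the result was not tested beyond the covariate fits, which called 0 and 1 collagen genes. Over all genes those fits called 0% and 3.81%.

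Between genotypes in irradiated skin, 4 of 31 were higher in DE2, Col12a1, Col7a1, Col5a1 and Col6a3, where 2.35% of all genes were higher. Only Col4a6 was lower, where 0.608% of all genes were. The median over the 31 was 0.97, against -0.03 over all genes, and 23 of 31 were above 0. Counts of calls depended on the tool: DESeq2 called 13 of 31, 12 of them higher, beside 5.79% of all genes. An edgeR fit with no filter, which tested all 41, called 14, beside 3.57% of all genes. The main fit called 2.96% of all genes. All hair follicle markers had values below 0 here, with 4 of 17 called lower, 4 of 8 basal keratinocyte markers were higher and 1 lower, and the neutrophil list summed to 4035 to 4377 CPM in DE2 against 182 to 378 in WT. The part of these differences in the collagen result was not tested beyond the covariate fits. Of these the hair follicle list left 2 calls, the fibroblast list 1 and the muscle share all 5. Over all genes those fits called 0.893%, 0.516% and 4.38%, in the same order.

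The interaction of genotype and UVB, the test of whether the UVB difference itself differed between genotypes, called 5 of 31. Above 0, meaning a UVB difference in DE2 above that in WT, were Col12a1, Col18a1, Col6a3 and Col4a1, where 5.64% of all genes were called. Below 0 was Col4a6, where 4.84% of all genes were called. The median over the 31 was 0.87, against 0.04 over all genes. With irradiated WT replicate 2 and untreated DE2 replicate 1 both left out, 34 collagen genes were tested. The numbers called were 0 for UVB in WT, 17 for UVB in DE2, 3 for genotype without UVB, 6 for genotype with UVB and 6 for the interaction. Over all genes 0.123%, 31.9%, 27.3%, 4.87% and 13.8% were called, in the same order. The 4 pairwise comparisons share groups with each other, so they are not independent of each other or of the interaction.

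**Figure D3:**
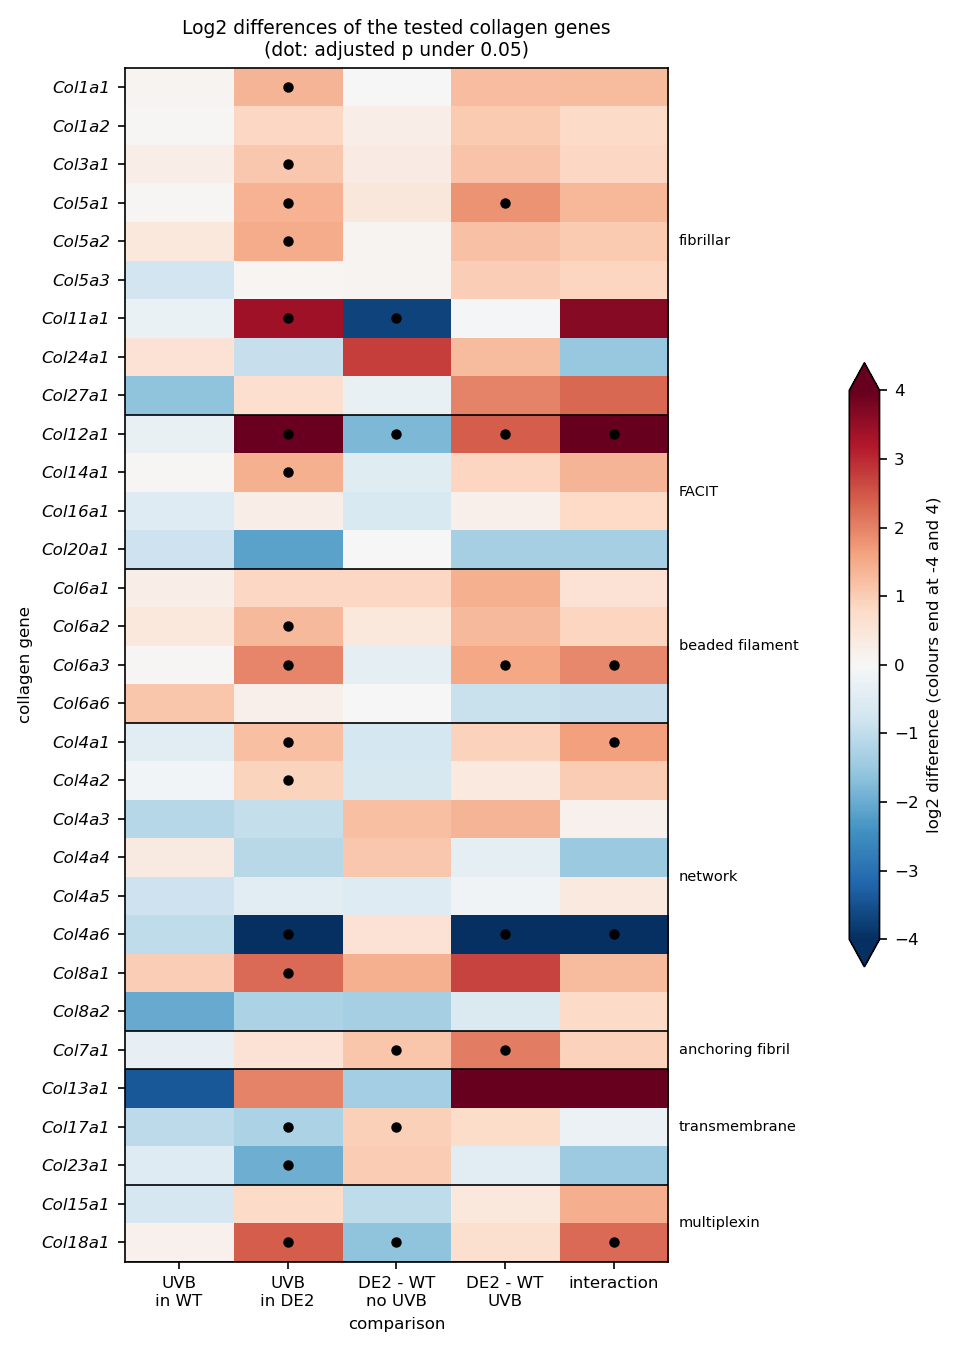
Log2 differences of the 31 tested collagen genes (rows, by class) in the 5 comparisons (columns), with a dot where the adjusted p was under 0.05 and colours ending at -4 and 4. The UVB column for DE2 holds 16 dots, the UVB column for WT none, and Col12a1 has a dot in 4 of the 5 columns.

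Among the fibrillar chains, Col1a1 and Col3a1 were called higher with UVB in DE2, with overlap between libraries, and Col1a2 was not called. Col1a1 (ENSMUSG00000001506, chromosome 11, 94936224 to 94953042 of GRCm38, plus strand) encodes the alpha 1 chain of collagen I. It was at 169, 117 and 121 CPM in the untreated WT libraries, 166, 116 and 153 in irradiated WT, 239.7, 85.9 and 78.3 in untreated DE2 and 207, 497 and 323 in irradiated DE2. The high untreated DE2 library, replicate 1, lay above the lowest irradiated one. The UVB difference in DE2 was 1.35 ± 0.40 (adjusted p = 0.0217), and between genotypes in irradiated skin it was 1.24 ± 0.40 (adjusted p = 0.123). The call in DE2 was lost without untreated DE2 replicate 2 (0.0933) or 3 (0.0929) and without irradiated DE2 replicate 2 (0.105), and with the fibroblast covariate (1.02, adjusted p = 0.0775). Col1a2, the partner chain, was at 426, 411 and 304 CPM in untreated WT, 465, 336 and 388 in irradiated WT, 736, 351 and 294 in untreated DE2 and 519, 1187 and 745 in irradiated DE2. It was not called in any comparison, with 0.83 ± 0.34 for UVB in DE2 (adjusted p = 0.0852). Without untreated DE2 replicate 1 that difference was 1.34 at an adjusted p of 0.00437.

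Collagen III, whose single chain gene is Col3a1 (ENSMUSG00000026043, chromosome 1, 45311538 to 45349706, plus strand), had the library pattern of collagen I. Its levels were 357, 439 and 316 CPM in untreated WT, 567, 406 and 361 in irradiated WT, 691, 356 and 355 in untreated DE2 and 654, 1392 and 925 in irradiated DE2. Untreated DE2 replicate 1 again lay within the irradiated range. UVB in DE2 gave 1.08 ± 0.31 (adjusted p = 0.0188), and genotype in irradiated skin gave 1.16 ± 0.32 (adjusted p = 0.0635). The first call was lost without untreated DE2 replicate 2 (0.0875) or 3 (0.0827), or irradiated DE2 replicate 2 (0.109), and with the fibroblast covariate (0.0829). With the hair follicle covariate the UVB differences of Col1a1 and Col3a1 in DE2 were -0.21 and about 0. Col3a1 also shares 1.44% of its exon bases with another annotated gene.

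In collagen V, which copolymerises with collagen I and limits fibril width, the Col5a1 libraries separated more cleanly than those of Col1a1 or Col3a1. Col5a1 (ENSMUSG00000026837, chromosome 2, 27886425 to 28039514, plus strand) was at 44.6, 52.7 and 34.7 CPM in untreated WT, 49.1, 39.4 and 49.0 in irradiated WT, 86.1, 44.0 and 50.9 in untreated DE2 and 105, 219.5 and 150.3 in irradiated DE2. All 3 irradiated DE2 libraries lay above the other 9. The difference was 1.39 ± 0.30 for UVB in DE2 (adjusted p = 0.00323) and 1.79 ± 0.30 for genotype in irradiated skin (adjusted p = 0.00493), and both calls held in the 12 fits that each left out 1 library. The UVB call was lost with the muscle covariate (0.78, adjusted p = 0.421) and the hair follicle covariate (0.26, adjusted p = 0.995). The genotype call was lost with the fibroblast list as a covariate (1.24, adjusted p = 0.129). Its interaction, 1.33 ± 0.42, missed the threshold (adjusted p = 0.0555). Col5a2 was at 23.4, 31.3 and 24.7 CPM in untreated WT, 53.7, 28.7 and 24.8 in irradiated WT, 40.8, 23.7 and 21 in untreated DE2 and 54.2, 114 and 73.0 in irradiated DE2. It rose with UVB in DE2 by 1.49 ± 0.36 (adjusted p = 0.00634). Genotype in irradiated skin, at 1.17 ± 0.35, was not called for Col5a2 (adjusted p = 0.0958). Col5a3, a less abundant collagen V chain, had 0.08 ± 0.40 for UVB in DE2 (adjusted p = 0.91), with overlap between libraries.

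Col11a1, a chain of collagen XI, which is best known from cartilage, had its low point in untreated DE2. Its levels were 10.2, 6.5 and 13.1 CPM in untreated WT, 12, 2.20 and 10.6 in irradiated WT, 0, 1.69 and 0.553 in untreated DE2 and 13.0, 6.51 and 3.99 in irradiated DE2. Counts summed to 138, 88, 8 and 86 in these groups. It was lower in untreated DE2 than in untreated WT (-3.71 ± 0.91, adjusted p = 0.00928) and rose with UVB in DE2 (3.38 ± 0.91, adjusted p = 0.0127). Irradiated DE2 and irradiated WT differed by -0.06 ± 0.75 (adjusted p = 0.984). The UVB call was lost without irradiated DE2 replicate 1 (0.0512) or untreated DE2 replicate 3 (0.0503). Col24a1 and Col27a1, fibrillar chains at 0 to 11.6 CPM, were not called in any comparison.

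Of the FACIT genes, Col12a1 had the smallest adjusted p of the tested collagen genes in 4 of the 5 comparisons. Collagen XII, its product, binds the surface of collagen I fibrils in tissue under tension. Col12a1 (ENSMUSG00000032332, chromosome 9, 79598991 to 79718831, minus strand) was at 31, 22.3 and 19.5 CPM in untreated WT, 17.7, 20.6 and 20.9 in irradiated WT, 6.79, 6.48 and 7.47 in untreated DE2 and 63.9, 170.1 and 84.9 in irradiated DE2. The untreated DE2 libraries were all below, and the irradiated DE2 libraries all above, the 6 WT libraries. UVB in DE2 gave 3.94 ± 0.37 (adjusted p = 3.67e-06), and UVB in WT gave -0.30 ± 0.33 (adjusted p = 1). The interaction was 4.24 ± 0.49 (adjusted p = 8.79e-05). In DE2 against WT it was lower in untreated skin (-1.81 ± 0.35, adjusted p = 0.00247) and higher in irradiated skin (2.43 ± 0.34, adjusted p = 0.00165). These 4 calls held in all 12 fits that left out 1 library. The hair follicle covariate ended all 4, with estimates of 5.80 for UVB in DE2, 5.89 for the interaction, -3.97 and 1.91, and the muscle covariate ended the one in untreated skin (-1.72, adjusted p = 0.0821).

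Col14a1, encoding a FACIT chain that also binds collagen I fibrils, was at 24.1, 19.3 and 17.2 CPM in untreated WT, 30.0, 16.7 and 16.3 in irradiated WT, 16.5, 13.8 and 12.4 in untreated DE2 and 43.9, 24.3 and 46.5 in irradiated DE2. It rose with UVB in DE2 by 1.42 ± 0.34 (adjusted p = 0.00674). Unlike most members it was lowest of its group in irradiated DE2 replicate 2, the library in which Col12a1 was highest. Col16a1 and Col20a1, the other tested FACIT genes, were not called in any comparison, and Col16a1 spanned 28.5 to 70.4 CPM over the 12 libraries.

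In collagen VI the 3 main chains, which assemble into 1 trimer, were compared. Col6a3 (ENSMUSG00000048126, chromosome 1, 90765923 to 90843971, minus strand) was at 39.9, 44.8 and 44.6 CPM in untreated WT, 71.7, 31.3 and 30.3 in irradiated WT, 32.8, 38.9 and 27.9 in untreated DE2 and 73.4, 169.9 and 146 in irradiated DE2. All irradiated DE2 libraries lay above the other 9, the lowest by a small margin over irradiated WT replicate 1. UVB in DE2 gave 1.97 ± 0.35 (adjusted p = 0.000953), genotype in irradiated skin 1.55 ± 0.34 (adjusted p = 0.0251) and the interaction 1.92 ± 0.49 (adjusted p = 0.0217). Removing irradiated WT replicate 2 (0.0725) or 3 (0.11) ended the genotype call, as did removing irradiated DE2 replicate 2 (0.134) or 3 (0.0828). It was also lost with the hair follicle (adjusted p = 0.197) or fibroblast (1.06, adjusted p = 0.28) covariate. Leaving out both libraries that stood apart (0.058), or fitting only the groups compared (0.0619), ended it too. The interaction was lost without untreated DE2 replicate 3 (0.0585), irradiated WT replicate 2 (0.0539) or irradiated DE2 replicate 2 (0.0662) or 3 (0.0527).

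Col6a2 was at 33.8, 41.5 and 35.7 CPM in untreated WT, 64.9, 42.4 and 41.2 in irradiated WT, 66.0, 27.3 and 54.8 in untreated DE2 and 69.3, 184 and 108 in irradiated DE2. It rose with UVB in DE2 by 1.29 ± 0.35 (adjusted p = 0.0142), a call lost without untreated DE2 replicate 2 (0.065) or irradiated DE2 replicate 2 (0.102), and with the fibroblast covariate (0.0964). Col6a1 was at 43.6, 49.9 and 55.0 CPM in untreated WT, 69.3, 67.1 and 40.3 in irradiated WT, 135, 70.2 and 59.2 in untreated DE2 and 56.1, 271 and 143 in irradiated DE2. Its groups overlapped, and UVB in DE2 gave 0.83 ± 0.45 (adjusted p = 0.189). The log2 ratio of Col6a3 to Col6a1 was -2.01, -0.84 and -1.06 in untreated DE2 and 0.38, -0.67 and 0.03 in irradiated DE2, so the libraries of the sites did not overlap. In untreated WT the ratio was -0.30 to -0.12, and in irradiated WT it was 0.05, -1.07 and -0.40, which overlapped both DE2 sites. Col6a6, a chain at 1.04 to 12.8 CPM, was not called.

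Basement membrane collagen IV is built from 6 chains whose genes lie in 3 head-to-head pairs, each pair transcribed outward from a shared stretch. Col4a1 and Col4a2 lie on chromosome 8, where Col4a1 ends at 11312826 on the minus strand and Col4a2 begins at 11312805 on the plus strand, so their annotated first exons overlap by 22 bases. Col4a4 and Col4a3 on chromosome 1 are 71 bases apart, and Col4a6 and Col4a5 on chromosome X are 1308 bases apart. Windows of 250 bases before to 50 after each start, from RefSeq on GRCm38.p6, were matched by symbol for 32 of the 41 genes, 34 windows in all. Col12a1 was not among them. Those of the other 4 genes called in the interaction and of their head-to-head partners are shown 5′ to 3′ on the gene's own strand, because their pairing and their values can then be read together. Capitals mark the letters of 4 motifs, each searched on both strands. The motif of the CCAAT box is those 5 letters. The GC box was searched as GGGCGG. The TATA box was searched as TATAAA. The AP-1 element was searched as TGANTCA, where N is any base. The windows are Col4a1 at chr8:11312777-11313076 (minus), Col4a2 at chr8:11312555-11312854 (plus), Col4a6 at chrX:141474027-141474326 (minus), Col4a5 at chrX:141475169-141475468 (plus), Col6a3 at chr1:90843922-90844221 (minus), and for Col18a1 a first window at chr10:77166481-77166780 and a second at chr10:77113656-77113955 (minus).
Col4a1: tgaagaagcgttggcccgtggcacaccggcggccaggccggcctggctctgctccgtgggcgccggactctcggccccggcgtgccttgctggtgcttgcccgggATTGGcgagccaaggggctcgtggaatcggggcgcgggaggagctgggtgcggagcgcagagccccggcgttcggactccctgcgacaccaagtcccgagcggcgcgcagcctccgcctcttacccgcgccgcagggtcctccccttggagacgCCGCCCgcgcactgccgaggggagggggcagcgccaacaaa
Col4a2: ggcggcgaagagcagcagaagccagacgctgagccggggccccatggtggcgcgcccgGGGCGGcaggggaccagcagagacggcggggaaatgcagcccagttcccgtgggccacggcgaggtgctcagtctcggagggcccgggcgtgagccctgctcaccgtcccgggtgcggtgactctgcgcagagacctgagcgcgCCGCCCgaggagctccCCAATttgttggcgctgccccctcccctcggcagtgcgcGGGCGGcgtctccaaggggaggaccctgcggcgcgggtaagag
Col4a6: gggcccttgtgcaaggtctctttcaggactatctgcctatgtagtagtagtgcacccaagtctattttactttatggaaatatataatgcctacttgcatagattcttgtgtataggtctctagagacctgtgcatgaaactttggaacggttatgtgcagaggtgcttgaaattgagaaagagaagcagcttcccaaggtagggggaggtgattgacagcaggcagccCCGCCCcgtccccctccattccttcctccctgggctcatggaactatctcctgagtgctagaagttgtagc
Col4a5: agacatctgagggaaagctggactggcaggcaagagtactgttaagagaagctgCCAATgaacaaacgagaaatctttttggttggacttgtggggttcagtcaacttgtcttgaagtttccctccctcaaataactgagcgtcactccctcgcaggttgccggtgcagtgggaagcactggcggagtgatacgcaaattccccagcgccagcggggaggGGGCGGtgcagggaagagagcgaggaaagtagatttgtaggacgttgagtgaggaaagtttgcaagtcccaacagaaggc
Col6a3: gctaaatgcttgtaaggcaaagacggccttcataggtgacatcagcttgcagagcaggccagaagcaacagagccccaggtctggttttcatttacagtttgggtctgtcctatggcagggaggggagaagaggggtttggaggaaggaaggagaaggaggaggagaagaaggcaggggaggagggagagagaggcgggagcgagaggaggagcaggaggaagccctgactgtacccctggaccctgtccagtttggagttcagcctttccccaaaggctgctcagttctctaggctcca
Col18a1 first: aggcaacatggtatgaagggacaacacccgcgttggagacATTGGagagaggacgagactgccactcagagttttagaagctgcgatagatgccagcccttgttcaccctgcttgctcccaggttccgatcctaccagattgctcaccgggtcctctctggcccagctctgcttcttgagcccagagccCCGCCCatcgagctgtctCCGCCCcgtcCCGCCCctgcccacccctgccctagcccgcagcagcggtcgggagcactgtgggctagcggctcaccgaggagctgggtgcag
Col18a1 second: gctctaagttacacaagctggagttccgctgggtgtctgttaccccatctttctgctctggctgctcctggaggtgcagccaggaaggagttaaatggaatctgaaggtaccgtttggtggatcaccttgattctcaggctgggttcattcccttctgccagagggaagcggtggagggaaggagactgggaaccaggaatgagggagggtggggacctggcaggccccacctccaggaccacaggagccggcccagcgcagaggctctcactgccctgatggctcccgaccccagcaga

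The Col4a1 and Col4a2 windows share 78 bases on opposite strands. Each holds 1 CCAAT box, and they hold 1 and 3 GC boxes. The GC box of the Col4a1 window lies in the shared bases and is also 1 of the 3 in the Col4a2 window. The Col4a6 window holds 1 GC box, the Col4a5 window 1 CCAAT box and 1 GC box, the first Col18a1 window 1 CCAAT box and 3 GC boxes, and the Col6a3 and second Col18a1 windows hold none of the 4 motifs. Over all 32851 windows in the table, 37.4% hold a CCAAT box, 35.7% a GC box, 13.6% a TATA box and 7.81% an AP-1 element. Among the 34 collagen windows, 11 hold a CCAAT box, 21 a GC box, 5 a TATA box and 1, that of Col6a1, an AP-1 element. A match describes the letters of a window and shows no binding.

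Both genes of the first pair rose with UVB in DE2, and Col4a1 but not Col4a2 was called in the interaction. Col4a1 (ENSMUSG00000031502, chromosome 8, 11198423 to 11312826, minus strand) was at 84.7, 71.0 and 87.4 CPM in untreated WT, 55.9, 61.2 and 64.8 in irradiated WT, 44.6, 27.0 and 77.5 in untreated DE2 and 85.6, 145 and 115 in irradiated DE2. Irradiated WT lay wholly below untreated WT, and irradiated DE2 wholly above untreated DE2. UVB in DE2 gave 1.21 ± 0.30 (adjusted p = 0.00843), UVB in WT -0.42 ± 0.30 (adjusted p = 1) and the interaction 1.63 ± 0.43 (adjusted p = 0.0259). The interaction was lost without untreated DE2 replicate 2 (0.0526), irradiated WT replicate 1 (0.0561) or 2 (0.0524), or irradiated DE2 replicate 2 (0.0748) or 3 (0.0523). Col4a2 was at 55.1, 64.7 and 68.5 CPM in untreated WT, 69.8, 41.1 and 62.4 in irradiated WT, 36.9, 33.8 and 50.1 in untreated DE2 and 52.5, 78.8 and 95.1 in irradiated DE2. It rose with UVB in DE2 by 0.90 ± 0.27 (adjusted p = 0.02), a call lost without untreated DE2 replicate 2 (0.089) or irradiated DE2 replicate 2 (0.0595) or 3 (0.0965), and with the fibroblast covariate (0.083). Its interaction was 1.02 ± 0.37 (adjusted p = 0.0919). Across the 12 libraries the log2 ratio of Col4a1 to Col4a2 ranged from -0.32 to 0.87.

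In the X-linked pair Col4a6 was called and Col4a5 was not. Col4a6 (ENSMUSG00000031273, chromosome X, 141165403 to 141474076, minus strand), whose chain is found in the basement membrane of skin, was at 14.5, 7.66 and 6.23 CPM in untreated WT, 4.09, 7.35 and 2.42 in irradiated WT, 24.8, 6.76 and 10.5 in untreated DE2 and 0.542, 0 and 0 in irradiated DE2. Irradiated DE2 held 2 counts in all, where untreated WT held 130, irradiated WT 53 and untreated DE2 164. By counts, its level was 0.0130 of that in untreated DE2, with an exact 95% interval of 0.00156 to 0.0477, and 0.0394 of that in irradiated WT, with an interval of 0.00465 to 0.149. Both intervals cover counting error only. edgeR called it lower with UVB in DE2 (adjusted p = 0.000481), lower in DE2 than WT in irradiated skin (adjusted p = 0.0264) and in the interaction (-4.98 ± 1.21, adjusted p = 0.0182). The genotype call was lost with limma voom (0.163), with the hair follicle (0.141) or fibroblast (0.0862) covariate, and without irradiated WT replicate 1 (0.0552) or 2 (0.0635) or irradiated DE2 replicate 2 (0.129) or 3 (0.0903). The interaction was lost with limma voom (0.0792) and with the muscle (0.129) or hair follicle (0.725) covariate. It was also lost without untreated WT replicate 2 (0.0504), without irradiated DE2 replicate 2 (0.0542) and without both libraries named above as standing apart (0.0615).

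Col4a5, the partner of Col4a6, was at 11.5, 7.66 and 14.3 CPM in untreated WT, 5.73, 4.65 and 8.48 in irradiated WT, 12.9, 6.48 and 3.87 in untreated DE2 and 7.85, 5.54 and 3.63 in irradiated DE2. It was not called, and UVB in DE2 gave -0.44 ± 0.54 (adjusted p = 0.588). The log2 ratio of Col4a6 to Col4a5, with 1 CPM added to each, was -2.71 to -2.21 in irradiated DE2, 0.05 to 1.24 in untreated DE2, -1.08 to 0.31 in WT skin without UVB and -1.47 to 0.56 in WT skin with it. The irradiated DE2 libraries thus lay below the other 9. Col4a3 and Col4a4, chains best known from kidney, eye and ear, were at 0 to 4.98 and 1.62 to 14.9 CPM and were not called in any comparison.

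**Figure D4:**
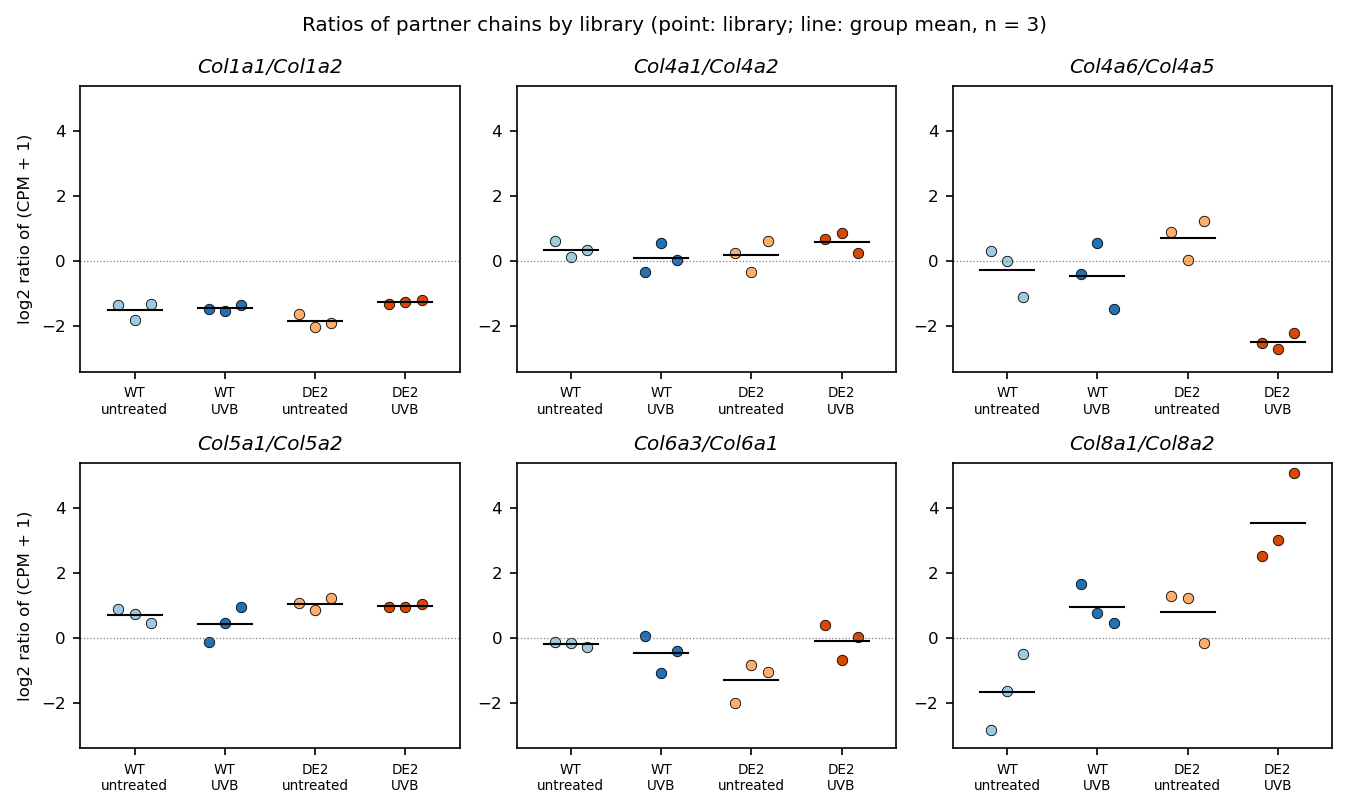
Log2 ratio of 6 pairs of partner chains in each library, computed on CPM with 1 added, by group, with the group mean as a line. Col4a6/Col4a5 lies between -2.71 and -2.21 in irradiated DE2, apart from the other groups, while Col1a1/Col1a2 spans only -2.02 to -1.20 over the 12 libraries.

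The other network collagen with a call was Col8a1, a chain of the short-chain collagen VIII made by vascular and other cells. Its levels were 0, 1.39 and 3.53 CPM in untreated WT, 2.18, 4.41 and 3.33 in irradiated WT, 2.67, 7.33 and 3.6 in untreated DE2 and 9.48, 22.9 and 33.0 in irradiated DE2. It rose with UVB in DE2 by 2.26 ± 0.79 (adjusted p = 0.0452). That call was lost without any 1 of the 3 untreated DE2 libraries, irradiated DE2 replicate 2 or 3, or irradiated WT replicate 1 (adjusted p of 0.0504 to 0.176), without both libraries that stood apart (0.103) and with the fibroblast covariate (0.0783). Its partner Col8a2 was at 0 to 6.5 CPM and was not called.

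Collagen VII was higher in DE2 than in WT at both sites. Col7a1 (ENSMUSG00000025650, chromosome 9, 108953586 to 108984875, plus strand) was at 63.7, 43.6 and 49.0 CPM in untreated WT, 48.3, 41.4 and 34.5 in irradiated WT, 140.0, 117 and 82.7 in untreated DE2 and 85, 188 and 237 in irradiated DE2. All 6 DE2 libraries lay above all 6 WT libraries. The genotype difference was 1.12 ± 0.32 in untreated skin (adjusted p = 0.0192) and 2.04 ± 0.32 in irradiated skin (adjusted p = 0.00375). UVB did not pass the threshold in either genotype, with 0.58 ± 0.31 in DE2 (adjusted p = 0.183) and -0.33 ± 0.32 in WT (adjusted p = 1), nor did the interaction (0.91 ± 0.44, adjusted p = 0.207). The irradiated call held in all 12 fits that left out 1 library and was lost with the fibroblast covariate (1.67, adjusted p = 0.0978). The untreated call was lost without untreated DE2 replicate 1 (0.0565) or untreated WT replicate 2 (0.11) or 3 (0.085), and without both libraries that stood apart (0.0542). It was also lost with library totals (0.125) and with the muscle (0.235), hair follicle (0.967) or fibroblast (0.195) covariate.

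The collagen XVII gene fell with UVB in DE2 skin. Col17a1 (ENSMUSG00000025064, chromosome 19, 47646344 to 47692094, minus strand) was at 406, 239 and 328 CPM in untreated WT, 142, 159.7 and 166 in irradiated WT, 912, 565 and 420.2 in untreated DE2 and 244, 308 and 230.1 in irradiated DE2. Irradiated libraries lay below untreated ones in each genotype, and DE2 above WT at each site. It fell with UVB in DE2 by 1.28 ± 0.27 (adjusted p = 0.00301), and its difference in WT was -1.05 ± 0.27 (adjusted p = 0.554). The interaction, -0.22 ± 0.38 (adjusted p = 0.765), did not separate the genotypes. It was higher in DE2 than in WT by 0.97 ± 0.27 in untreated skin (adjusted p = 0.0175), and 0.74 ± 0.27 in irradiated skin did not pass (adjusted p = 0.176). The untreated call was lost without untreated DE2 replicate 1 (0.0651) or untreated WT replicate 2 (0.129) or 3 (0.0736), with library totals (0.177) and without both libraries that stood apart (0.056). It was also lost with the fibroblast (0.127) or hair follicle (0.946) covariate and with only the groups compared in the fit (0.0607). The hair follicle covariate also ended the UVB call in DE2 (-1.80, adjusted p = 0.827). As a share of collagen counts, Col17a1 took 26.6% ± 2.49 in untreated DE2 and 7.30% ± 2.23 in irradiated DE2. Of the 8 basal keratinocyte markers, 1 was called higher and 1 lower with UVB in DE2, with a median of -0.05. Their summed level did rise, from 5789 to 10932 CPM in untreated DE2 to 15930 to 21097 in irradiated DE2. In WT it was 4124 to 5714 CPM untreated and 3578 to 4386 irradiated. The part of these markers in the Col17a1 and Col7a1 results was not tested.

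The transmembrane gene Col23a1 was at 24.5, 13.9 and 23.5 CPM in untreated WT, 13.1, 13.7 and 16.3 in irradiated WT, 48.3, 55.5 and 22.1 in untreated DE2 and 4.33, 10.8 and 17.4 in irradiated DE2. It fell with UVB in DE2 by 1.96 ± 0.46 (adjusted p = 0.00558), and the irradiated DE2 libraries lay below the untreated ones. Col13a1, a transmembrane collagen at 0 to 9.64 CPM, was not called in the 5 comparisons. Its interaction of 5.36 ± 1.78 (adjusted p = 0.0677) was called by DESeq2 (0.0171). Its counts were low and uneven, at 13, 41 and 0 in untreated WT and 0, 2 and 2 in irradiated WT. In DE2 they were 9, 5 and 4 untreated and 7, 40 and 20 irradiated.

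Of the multiplexins, basement membrane collagens that carry sugar chains, Col18a1 was called in 3 of the 5 comparisons. Collagen XVIII is the source of the fragment endostatin. Col18a1 (ENSMUSG00000001435, chromosome 10, 77052178 to 77166548, minus strand) was at 57.4, 58.9 and 51.7 CPM in untreated WT, 45.6, 52.2 and 91.7 in irradiated WT, 16.7, 14.4 and 23.8 in untreated DE2 and 44.7, 145 and 106 in irradiated DE2. Untreated DE2 lay below all other libraries, while irradiated DE2 overlapped both WT groups. UVB in DE2 gave 2.43 ± 0.39 (adjusted p = 0.00041), genotype in untreated skin -1.61 ± 0.38 (adjusted p = 0.00719) and the interaction 2.26 ± 0.52 (adjusted p = 0.0142). Genotype in irradiated skin, at 0.65 ± 0.36, was not called (adjusted p = 0.446). All 3 calls held in the 12 fits that left out 1 library, and all 3 were lost with the muscle covariate (adjusted p of 0.0859, 0.276 and 0.187). The hair follicle covariate also ended all 3 (adjusted p of 0.83, 0.959 and 0.941). Col15a1, the other multiplexin, was at 5.34 to 14.7 CPM and was not called in any comparison.

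**Figure D5:**
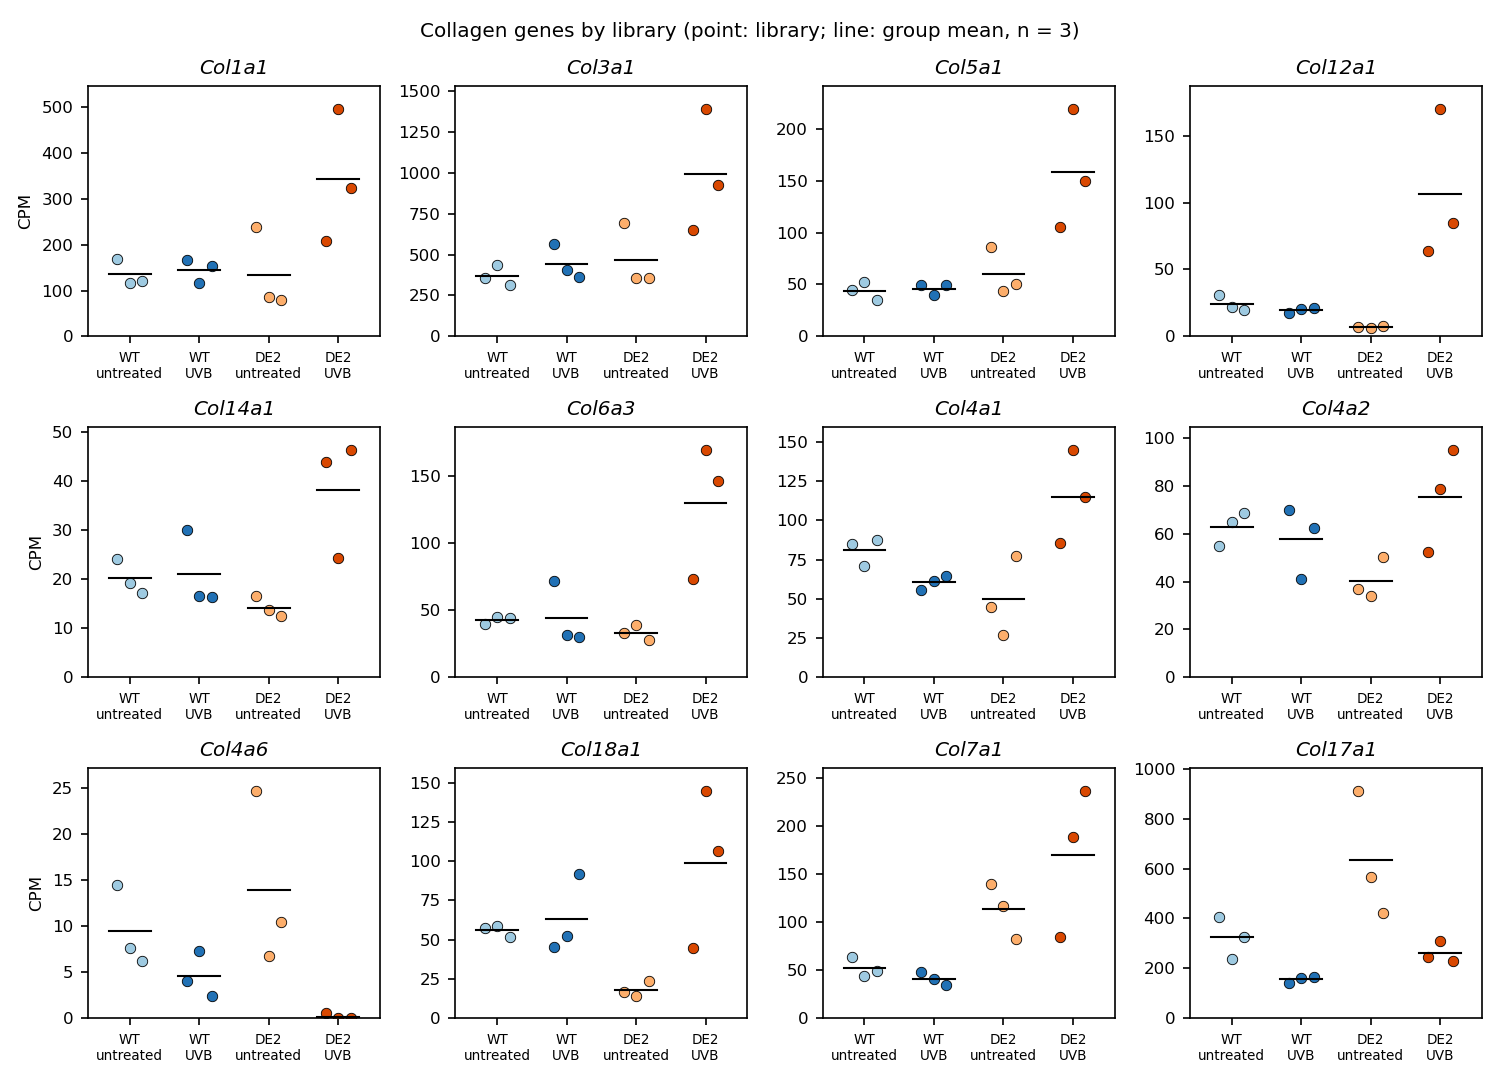
CPM of 12 collagen genes in each library, on linear axes from 0, by group, with the group mean as a line. Col12a1 has its 3 lowest libraries in untreated DE2, at 6.48 to 7.47 CPM, and its 3 highest in irradiated DE2, at 63.9 to 170.1, and Col4a6 sits at 0 to 0.542 CPM in irradiated DE2.

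The 10 untested members had 14 to 61 counts over the 12 libraries. Col25a1, a transmembrane collagen, had 29 counts in irradiated DE2, from replicates 2 and 3, against 2 in untreated DE2 and 1 in irradiated WT. The ratio to untreated DE2 was 15.4, with a 95% interval of 3.91 to 134 for counting error only. Col26a1 had 22 and 34 counts in the untreated and irradiated WT groups and 4 and 1 in the DE2 groups. By library, untreated WT held 1, 21 and 0 and untreated DE2 0, 0 and 4, which overlapped. Col2a1, the cartilage collagen, had 24 counts in irradiated DE2 and 0 in untreated DE2, a level at least 8.52-fold higher against a floor of 3 counts over the group, but irradiated DE2 replicate 3 was also at 0. Col22a1 had 16 counts in untreated DE2 and 0 in irradiated DE2, at least 5.01-fold lower, with the skeletal muscle share moving the same way. The other untested genes, Col6a5, Col9a3, Col10a1, Col11a2, Col19a1 and Col28a1, had at most 31 counts in a group.

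Genes that make, trim, bind and cut collagen were followed in 9 lists of 92 genes, 84 of them tested. With UVB in WT, 0 of the 84 were called by edgeR, DESeq2 or limma voom, with 8 at an unadjusted p under 0.05 in edgeR. With UVB in DE2, 28 of the 84 were called, beside 27.8% of all genes. Of 17 hydroxylation and folding genes 6 rose and 2 fell. Serpinh1, the collagen chaperone HSP47, rose by 1.03 ± 0.22 (adjusted p = 0.00329), from 74.7, 56.9 and 58.1 CPM to 94.5, 170.4 and 122. P4ha1, a catalytic subunit of prolyl 4-hydroxylase, fell by 0.98 ± 0.25 (adjusted p = 0.00822). Of 6 propeptide removal genes 2 rose: Bmp1, the C-proteinase of fibrillar procollagens, by 1.22 ± 0.24 (adjusted p = 0.00184), and its relative Tll1, from 3 counts to 42, a ratio of 14.9 with an interval of 4.76 to 75.2.

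Of 7 collagen breakdown genes 3 rose with UVB in DE2. Mmp13, an interstitial collagenase, was at 0, 5.63 and 0 CPM in untreated DE2 and 41.4, 54.2 and 50.4 in irradiated DE2, a rise of 4.71 ± 1.02 (adjusted p = 0.00391). Mmp9, a gelatinase, rose by 2.74 ± 0.63 (adjusted p = 0.00592). Among 16 basement membrane and hemidesmosome partners 3 rose and 2 fell. Both that fell, Dst by 1.71 ± 0.20 (adjusted p = 3.36e-05) and Plec by 1.25 ± 0.23 (adjusted p = 0.00109), encode linkers of the hemidesmosome, where collagen XVII also sits. All 16 skeletal muscle markers fell in this comparison too, with a list median of -2.04. The part of that shift in the Dst and Plec results was not tested. In the remaining lists, 1 rose and 1 fell in each of cross-linking (6 tested), fibril binding proteins (10) and protease inhibitors (4), 1 rose and 3 fell of 11 in TGF-beta input, and 0 of 7 collagen receptors were called, with 1 of them at an unadjusted p under 0.05.

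In untreated skin, DE2 against WT, 20 of the 84 were called, a share near the 23.0% of all genes. Hydroxylation and folding had 4 higher and 1 lower of 17, led by P4ha2 at 1.80 ± 0.39 (adjusted p = 0.00412) and Plod1, a lysyl hydroxylase, at 1.23 ± 0.30 (adjusted p = 0.00823). Tgm2, a cross-linking transglutaminase, was the 1 of 6 in its list, at 1.67 ± 0.35 (adjusted p = 0.00368). Mmp2 was the 1 of 7 breakdown genes, at 1.33 ± 0.29 (adjusted p = 0.00478). The partners had 2 higher and 1 lower of 16, with Dst at 1.14 ± 0.20 (adjusted p = 0.00113) and Plec at 1.09 ± 0.23 (adjusted p = 0.00342). In the same comparison 13 of 16 skeletal muscle markers were higher. Higher and lower counts in the other lists were 1 and 1 for propeptide removal, 2 and 1 for fibril binding, 1 and 0 for protease inhibitors, 1 and 0 for receptors and 2 and 1 for TGF-beta input.

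In irradiated skin, DE2 against WT, 13 of the 84 were called, 13 higher and 0 lower, beside 2.96% of all genes. The list of partners had 4 of 16, among them Lamb3, a laminin chain gene, at 1.92 ± 0.35 (adjusted p = 0.00799). Hydroxylation and folding had 3 of 17, among them P3h4 at 1.79 ± 0.28 (adjusted p = 0.00343) and P4ha3, with 159 counts against 0, at least 55.3-fold higher. Collagen breakdown had 2 of 7, Mmp13 at 6.23 ± 1.15 (adjusted p = 0.0105) and Mmp9 at 2.8 ± 0.64 (adjusted p = 0.031). Fibril binding had 2 of 10, Aspn, encoding asporin, at 1.62 ± 0.29 (adjusted p = 0.00675) and Fmod, encoding fibromodulin, with 62 counts against 1, a ratio of 64.7 (11.2 to 2595). Untreated WT held 53 counts of Fmod, so the low irradiated WT level bears on that ratio. Protease inhibitors and TGF-beta input had 1 each, and propeptide removal, cross-linking and receptors had 0, with 2 genes at an unadjusted p under 0.05 and, in that order, a smallest adjusted p of 0.172 for Pcolce, 0.393 for Loxl1 and 0.502 for Lair1.

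In the interaction 9 of the 84 were called, a share near the 10.5% of all genes. Positive values, meaning a UVB difference in DE2 above that in WT, were found for P3h4 at 1.59 ± 0.39 (adjusted p = 0.0195) and Bmp1 at 1.16 ± 0.33 (adjusted p = 0.0385). Dst was negative at -1.10 ± 0.28 (adjusted p = 0.0234), as was Timp4, a metalloproteinase inhibitor, at -2.98 ± 0.72 (adjusted p = 0.0182). Bgn, Fmod and Mmp13 were also called above 0, and Smad3 below. With UVB in WT, Fmod went from 53 counts to 1.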

How the data were processed

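Counts of reads per gene were deposited by the authors for each of 12 libraries. The submitters' processing notes name GRCm38, HTSeq 2.0.2, SAMtools 1.16, Picard 3.1.0 and Trimmomatic 0.39. Not given in the sources used here: the aligner, the gene annotation, strand use in counting, and removal of duplicates. Overlapping genes may therefore share reads. The counts were analysed with edgeR 4.0.16 in R 4.3.3 (filterByExpr, TMM, robust quasi-likelihood fit of all 4 groups, 8 residual degrees of freedom), with Benjamini-Hochberg adjustment over 15126 genes. The approximate standard error is the log2 difference divided by the square root of the F statistic. The biological coefficient of variation was 35.8%. The same code was tested on simulated data. Alternatives used DESeq2 1.42.0, limma 3.58.1, other scalings and filters, marker covariates and libraries left out. Intervals and floors cover counting error only. Members and lists were chosen with earlier results of these data known. Genes are named by class, by calls, or as the 2 smallest p of a list, of which 1 gene is not reported here; Mmp2, Bgn, Fmod, Mmp13 and Smad3 (the last 4 in the interaction) were named after their values were seen.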

Additional observations from a re-analysis of the deposited data

Results flagged for a closer look

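For 5 collagen genes the UVB difference itself differed between DE2 and WT skin, by edgeR's interaction test at an adjusted p under 0.05. The log2 interaction was 4.24 for Col12a1, 2.26 for Col18a1, 1.92 for Col6a3, 1.63 for Col4a1 and -4.98 for Col4a6. The Col12a1 and Col18a1 calls held whichever of the 12 libraries was left out, and the other 3 did not. All 5 calls were lost with the hair follicle covariate, and all but that of Col12a1 with the muscle covariate. Over all genes those 2 fits called 0.00661% and 2.23% in the interaction, against 10.5% without a covariate. The losses are therefore not particular to these genes.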

How the results depend on the processing

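No paired analysis was possible because the labels carry no replicate numbers, and the numbers used here only name the libraries. With 25 other settings (24 for the interaction), the number of collagen genes called changed by over 1.5 times as follows. Without a filter on low counts, when all 41 were tested, it was 1 for UVB in WT, 14 for genotype with UVB and 10 for the interaction. Over all genes 0.488%, 3.57% and 8.44% were called there. DESeq2 gave 13 for genotype with UVB and 8 for the interaction, beside 5.79% and 15.1% of all genes. Library totals gave 9 for the interaction, beside 10.5% of all genes. Library totals moved the median of all genes from 0.02 to 0.26 for UVB in DE2 and from 0.04 to 0.38 for the interaction. The muscle covariate gave 3 for UVB in DE2 and 1 each for the untreated genotype comparison and the interaction, beside 4.69%, 3.81% and 2.23% of all genes. The hair follicle covariate gave 0, 0 and 0 for these and 2 for genotype with UVB, beside 0.00661%, 0%, 0.00661% and 0.893% of all genes. It also turned the UVB differences in DE2 of Col1a1 to -0.21 and of Col3a1 to -0.0046. The fibroblast covariate gave 3 for genotype without UVB and 1 for genotype with UVB, beside 20.1% and 0.516% of all genes. Leaving out both libraries that stood apart gave 3 of 34 tested for genotype without UVB, beside 27.3% of all genes. Leaving out 1 library gave 11 to 18 for UVB in DE2, 3 to 7 for genotype without UVB, 3 to 8 for genotype with UVB and 2 to 9 for the interaction. These fits tested 35 to 37 collagen genes. Over all genes they called 18.9 to 29.5%, 13.4 to 24.8%, 0.828 to 3.93% and 5.57 to 16.5%, in the same order. The untreated genotype count was 3 when untreated DE2 replicate 1 or untreated WT replicate 2 or 3 was dropped. The irradiated genotype count was 8 when untreated DE2 replicate 1 was dropped, and 3 on dropping irradiated WT replicate 2, irradiated DE2 replicate 2 or irradiated DE2 replicate 3. For the interaction these 4 gave 9, 3, 2 and 3, beside 16.5%, 6.24%, 5.98% and 6.76% of all genes. Dropping irradiated DE2 replicate 1 gave 8, beside 6.25% of all genes. The causes were not tested. Genes under about 10 counts a group could be read only by counting intervals.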
